A study of Mus musculus with 9 samples.

Results

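The S100 genes and the annexin genes encode 2 families of calcium-binding proteins, and their transcripts were measured in αTC1 cells with and without the EZH2 inhibitor EPZ011989. All gene symbols of the deposited count table that read S100 followed by a number with a letter a, or by b, g or z, and all that read Anxa followed by a number, were taken, including those without a count. S100pbp, which encodes an S100P-binding protein and not an S100 protein, was left out. This gave 28 of the 33212 genes of the table, 16 of them S100 genes and 12 annexin genes. αTC1 is a mouse line of glucagon-producing pancreatic alpha cells, and both groups were kept in low-glucose DMEM with fetal bovine serum. For 7 days, 5 libraries had the solvent DMSO and 4 libraries had 4 µM EPZ011989, which blocks EZH2, the methyltransferase of the gene-silencing Polycomb repressive complex. The libraries were made from poly-A RNA. The labels call them biological replicates but do not tell whether each came from a separate culture, so a p-value refers to library-to-library spread alone, which may be technical, and all of them come from 1 established line.

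S100 proteins are small EF-hand proteins that mostly form dimers, change shape on binding calcium and then grip a target protein. Annexins bind acidic phospholipids of membranes through a core of repeats that holds calcium at the membrane surface, and they act in exocytosis, endosome traffic and the repair of torn plasma membrane. The families meet directly, since S100a10 binds the N-terminal tail of Anxa2 and S100a11 that of Anxa1. In endocrine cells, annexins have been studied for their place in calcium-triggered release of hormone granules.

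Levels are given as CPM, the counts of a gene per 1e6 counts of the TMM-scaled library, and changes as log2 fold changes of EPZ011989 over DMSO from edgeR's quasi-likelihood test, with standard errors (SE). A gene counts as higher or lower at a Benjamini-Hochberg adjusted p under 0.05 over all 14754 genes tested. Library depth was 60274140 to 74651782 counts. The alpha cell identity of the libraries was visible in Gcg, the glucagon gene, at 19280 ± 804 CPM in DMSO (SD, n = 5) and 18633 ± 2338 CPM in EPZ011989 (SD, n = 4). Ezh2 transcript itself measured 199 ± 5.46 CPM (SD, n = 5) and 209 ± 6.79 CPM (SD, n = 4), with an adjusted p of 0.407. The compound acts on the protein, so this level does not check the treatment. EPZ011989 replicates 2 and 4 stood farthest apart on the second axis of a principal component analysis, an axis that held 10.9% of the variance against 58% for the first.

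In these families 8 genes rose with EPZ011989 and none passed the test as lower. No count was found in any library for 9 genes, while 6 had counts but stayed below the filter on low counts, and 13 were tested. Among those 13, 8 were higher, 0 lower and 5 did not pass, while over all genes tested 16.2% were higher and 7.96% lower. The 8 were S100a16, S100a4 and S100a10 among the S100 genes, and Anxa1, Anxa11, Anxa4, Anxa2 and Anxa6 among the annexins. The filter asked for about 0.139 CPM in 4 libraries, and S100a16, Anxa1 and Anxa11 met it through the EPZ011989 libraries alone, so a call for these 3 was partly set by the filter. Of the 10 genes that met it in both groups, 5 were higher and 0 lower. For 6 genes the lowest EPZ011989 library exceeded the highest DMSO library (S100a16, S100a4, S100a10, Anxa1, Anxa11 and Anxa4), which was true of 16.1% of all genes tested, and no gene had every EPZ011989 library below, against 8.77%. For S100a16, Anxa1 and Anxa11 this separation too was partly set by the filter, while S100a4, S100a10 and Anxa4 met it in both groups. The median log2 fold change was 0.49 over the 13 genes, with S100a16, Anxa1 and Anxa11 included, and 0.03 over all genes tested. In bulk RNA, fewer cells of a type and less RNA per cell cannot be told apart.

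**Figure D1:**
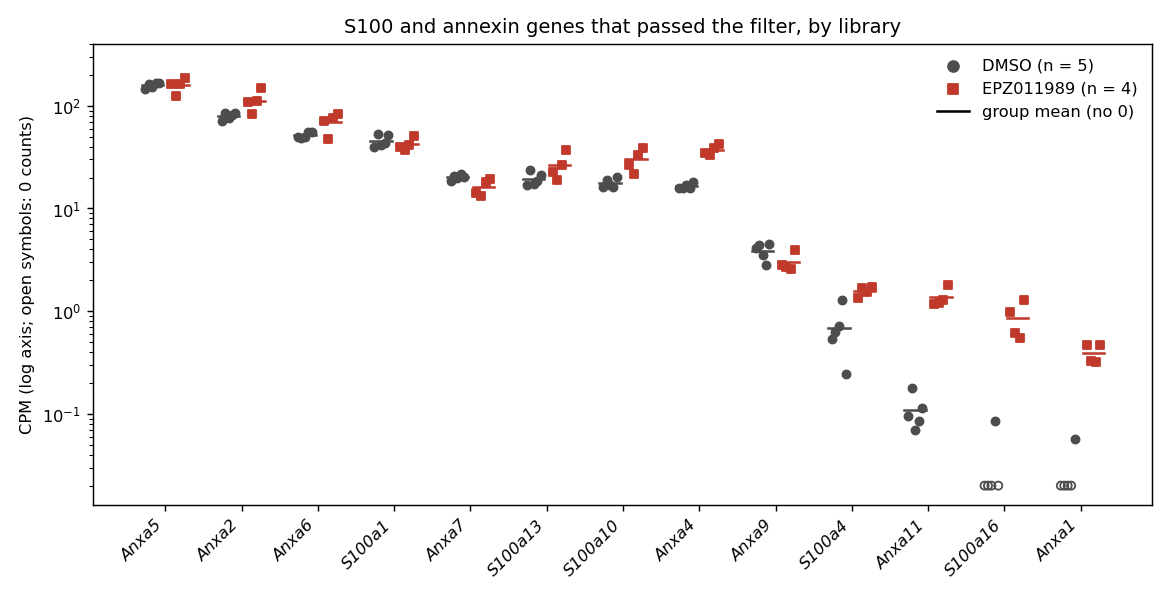
Level in CPM (log axis) of the 13 S100 and annexin genes that passed the filter, with a point for each library and a line at the group mean where no library was at 0. EPZ011989 libraries lie above all DMSO libraries for Anxa4, S100a10, S100a4, Anxa11, S100a16 and Anxa1, and overlap with them for the other 7 genes.

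Read by level, calls were not evenly spread over the genome. Of all genes tested with a mean under 1 CPM, 20.8% were higher and 0.554% lower, and of those at 1 to 10 CPM, 33.4% and 3.41%. Of those at 10 to 100 CPM, 11.7% were higher and 10.2% lower, and of those at 100 CPM or more, 4.55% and 15%. The tested S100 and annexin genes comprised 3 under 1 CPM, all higher but all kept by the filter through EPZ011989 libraries alone, 2 at 1 to 10 CPM with 1 higher, 7 at 10 to 100 CPM with 4 higher, and Anxa5 above 100 CPM, which did not pass.

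Ranked per kilobase of transcript, the same few genes supplied most of the family transcripts in both groups. In DMSO the level per kilobase was 92.0 ± 5.04 CPM for Anxa5, 67.6 ± 9.18 for S100a1 and 55.3 ± 4.45 for Anxa2 (SD, n = 5). S100a13 at 27.2 ± 3.94, S100a10 at 25.8 ± 2.76 and Anxa6 at 20.8 ± 1.36 CPM per kilobase came next, and the first pair of these did not differ beyond their spread. Anxa4 followed at 8.13 ± 0.532, then Anxa7 at 6.95 ± 0.368, Anxa9 at 2.07 ± 0.382 and S100a4 at 1.37 ± 0.763 CPM per kilobase. In EPZ011989 the order began with Anxa5 at 91.8 ± 15.2, Anxa2 at 77.8 ± 18.5 and S100a1 at 62.3 ± 8.73 CPM per kilobase (SD, n = 4), and these neighbours overlapped in their spread. Summed CPM of all S100 genes ranged from 73.1 to 95.95 in DMSO and from 80.0 to 130 in EPZ011989. Summed CPM of all annexin genes ranged from 307 to 350.3 in DMSO and from 305 to 485 in EPZ011989. Both sums overlapped between the groups.

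Anxa2 and S100a10 encode the partners of a heterotetramer that bridges membranes and the actin cortex. Anxa2 (ENSMUSG00000032231, GRCm38 chr9:69453620-69491795, plus strand) measured 70.9, 85.9, 76.5, 81.0 and 85.9 CPM in DMSO replicates 1 to 5 and 109, 83.0, 110.4 and 148 CPM in EPZ011989 replicates 1 to 4. EPZ011989 replicate 2 fell among the DMSO libraries and the other 3 lay above all of them. The means were 80.04 ± 6.44 CPM (SD, n = 5) and 113 ± 26.7 CPM (SD, n = 4), a log2 fold change of 0.49 with an SE of 0.14 and an adjusted p of 0.0244 by edgeR's quasi-likelihood test. The call was lost when any of DMSO replicates 1, 3 or 4 or EPZ011989 replicates 1, 3 or 4 was left out, with adjusted p from 0.0559 to 0.0718, and without EPZ011989 replicate 4 the log2 fold change was 0.32.

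S100a10 (ENSMUSG00000041959, chr3:93555080-93564643, plus strand) is the S100 protein that holds an open shape without calcium. It measured 16.1, 18.8, 16.9, 16.3 and 20.5 CPM in DMSO replicates 1 to 5. In EPZ011989 replicates 1 to 4 it measured 26.6, 21.8, 33.0 and 39.2 CPM, all above the highest DMSO library. The log2 fold change was 0.77 with an SE of 0.16 (adjusted p = 0.00415, edgeR's quasi-likelihood test), and the call held in all 21 alternative settings. The ratio of S100a10 to Anxa2 per kilobase was 0.479, 0.462, 0.467, 0.425 and 0.504 in DMSO replicates 1 to 5 and 0.516, 0.554, 0.631 and 0.560 in EPZ011989 replicates 1 to 4. The ratios did not overlap between groups, with means of 0.467 ± 0.0287 (SD, n = 5) and 0.565 ± 0.0480 (SD, n = 4). The ratio was chosen with the values known and was not tested. Ahnak, a giant scaffold protein bound by the same complex, rose from 0.510 ± 0.0781 CPM (SD, n = 5) to 1.28 ± 0.601 CPM (SD, n = 4), an adjusted p of 0.015 by edgeR.

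The other known pair, Anxa1 with S100a11, was close to undetected in DMSO. Anxa1 (ENSMUSG00000024659, chr19:20373428-20390944, minus strand), a glucocorticoid-responsive annexin that damps inflammation, was at 0 in DMSO replicates 1 to 4 and at 0.0572 CPM in replicate 5. It measured 0.464, 0.324, 0.317 and 0.463 CPM in EPZ011989 replicates 1 to 4. All EPZ011989 libraries thus lay above all DMSO libraries, although at a low level. The summed counts were 4 and 115, about 1 and 29 fragments, a depth-scaled ratio of 33.9 with a 95% counting interval of 5.62 to 1385. The adjusted p was 0.00255 by edgeR's quasi-likelihood test. S100a11 (chr3:93520488-93526287, plus strand) had no count in any DMSO library, 0.225 and 0.154 CPM in EPZ011989 replicates 1 and 4 and 0 in the other 2, below the filter. No Anxa1 to S100a11 ratio could be formed with S100a11 at 0 in 7 libraries.

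**Figure D2:**
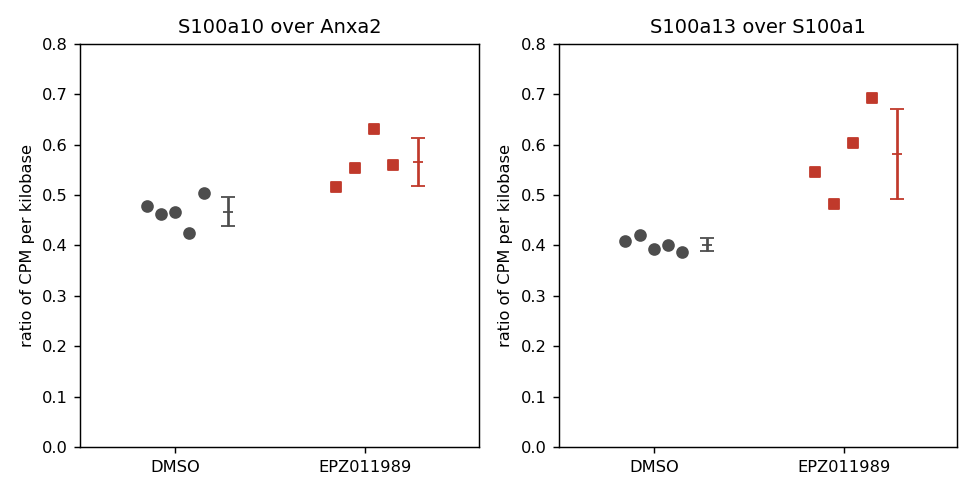
Ratio of CPM per kilobase of S100a10 to Anxa2 (left) and of S100a13 to S100a1 (right), with a point for each library and the mean ± SD beside it. EPZ011989 libraries lie above all DMSO libraries in both ratios, at means of 0.565 against 0.467 and 0.581 against 0.402.

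Anxa4 and Anxa11 were the annexins whose call held in all 21 alternative settings. Anxa4 met the filter in both groups. Anxa11 met it through the EPZ011989 libraries alone, so its call was partly set by the filter. Anxa4 (ENSMUSG00000029994, chr6:86736840-86793584, minus strand), an annexin that self-associates on membranes and is rich in epithelial cells, measured 15.8, 15.9, 16.9, 15.7 and 18.2 CPM in DMSO replicates 1 to 5. It measured 34.6, 33.4, 38.7 and 42.1 CPM in EPZ011989 replicates 1 to 4. The groups were far apart, with means of 16.5 ± 1.08 (SD, n = 5) and 37.2 ± 4.00 CPM (SD, n = 4), a 2.25-fold difference. The log2 fold change was 1.17 with an SE of 0.09 and an adjusted p of 6.1e-06 by edgeR's quasi-likelihood test.

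Anxa11 (ENSMUSG00000021866, chr14:25842156-25886804, plus strand) encodes an annexin with a long disordered N-terminus that tethers RNA granules to lysosomes. It measured 0.0947, 0.177, 0.0692, 0.0844 and 0.114 CPM in DMSO replicates 1 to 5 and 1.17, 1.21, 1.28 and 1.78 CPM in EPZ011989 replicates 1 to 4. All EPZ011989 libraries lay above the highest DMSO library. The means of 0.108 ± 0.0419 (SD, n = 5) and 1.36 ± 0.286 CPM (SD, n = 4) gave a log2 fold change of 3.63 with an SE of 0.36 (adjusted p = 3.64e-05, edgeR). Each DMSO library held only 5 to 12 counts, at or under the detection limit of 12, and the summed counts of 37 and 398 gave a depth-scaled ratio of 13 with a 95% counting interval of 6.58 to 29.2. An annotated antisense transcript that overlaps its exons, Anxa11os, was at 0 in all 9 libraries.

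Anxa6 (ENSMUSG00000018340, chr11:54979108-55033445, minus strand), the annexin with a doubled core, forms a cap at sites of membrane repair. It measured 50.2, 48.1, 50.2, 55.2 and 55.8 CPM in DMSO replicates 1 to 5 and 71.4, 47.5, 75.7 and 82.9 CPM in EPZ011989 replicates 1 to 4. As with Anxa2, EPZ011989 replicate 2 was the exception, here below all DMSO libraries, and the other 3 lay above them. The log2 fold change was 0.42 with an SE of 0.14 and an adjusted p of 0.0472 by edgeR. The call was lost in 14 of 21 alternative settings, among them RLE factors (adjusted p = 0.0578), no filter (0.0593), limma-voom (0.0654) and counts divided by 4 (0.0505), and the log2 fold change was 0.12 with the length trend of all tested genes removed. The adjusted p was 0.0835 to 0.154 when any library other than EPZ011989 replicate 2 was left out, and 1.7e-04 with a log2 fold change of 0.56 without that library.

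Anxa5, the annexin that binds exposed phosphatidylserine and is used as a probe of dying cells, was the most abundant of the families and did not pass the test. It (ENSMUSG00000027712, chr3:36448923-36475894, minus strand) measured 147, 162, 154, 168 and 165 CPM in DMSO replicates 1 to 5 and 162, 123, 164 and 186 CPM in EPZ011989 replicates 1 to 4. The groups overlapped around means of 159 ± 8.72 (SD, n = 5) and 159 ± 26.2 CPM (SD, n = 4), a log2 fold change of -0.002 with an SE of 0.105 and an adjusted p of 0.991 by edgeR.

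Anxa7, an annexin linked to granule fusion, was the tested gene with the lowest adjusted p among those with a negative change. It (ENSMUSG00000021814, chr14:20455260-20480133, minus strand) measured 18.5, 20.5, 19.9, 21.4 and 20.5 CPM in DMSO replicates 1 to 5. In EPZ011989 replicates 1 to 4 it measured 14.1, 13.1, 18.1 and 19.6 CPM, with the last inside the DMSO range. The log2 fold change was -0.31 with an SE of 0.12, and the adjusted p of 0.0863 by edgeR did not pass. Without EPZ011989 replicate 4 the log2 fold change was -0.43 and passed (adjusted p = 0.0249, edgeR), and DESeq2 also called it lower (adjusted p = 0.0438). Anxa9 (chr3:95296096-95307176, minus strand), an annexin whose core has lost calcium binding, ranged from 2.79 to 4.53 CPM in DMSO and from 2.56 to 3.99 CPM in EPZ011989, with an adjusted p of 0.213 by edgeR. Its exons overlap Mindy1 on the other strand, which rose from 28.8 ± 1.53 CPM (SD, n = 5) to 36.1 ± 1.71 CPM (SD, n = 4), and with strand use in counting not given in the sources used here their reads cannot be told apart.

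A group of 13 S100 genes lies on chromosome 3 between 90511034 and 93564643, and genes that rose stood there beside genes that did not pass the test or had no counts. S100a16 and S100a4 rose near the proximal end and S100a10 at the distal end, while S100a1 and S100a13 did not pass the test and S100a3, S100a2, S100a5, S100a8 and S100a9 were at 0 in all 9 libraries. Among the 64 other genes of the count table in this 3.05 Mb stretch, 59 were at 0 in all libraries and Gm9774 alone passed the filter. Gm9774, an unnamed gene model, measured 1.76 ± 0.339 CPM in DMSO (SD, n = 5) and 1.93 ± 0.478 CPM in EPZ011989 (SD, n = 4), with an adjusted p of 0.737 by edgeR.

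**Figure D3:**
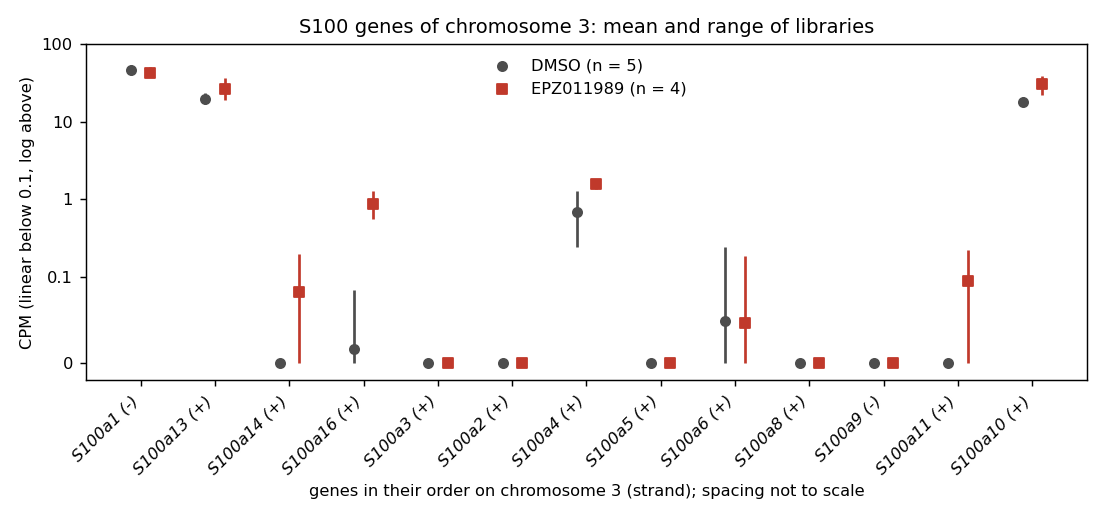
Mean CPM (points; linear axis below 0.1, log axis above) and range over libraries (lines) of the 13 S100 genes in their order along chromosome 3, spacing not to scale. S100a16, S100a4 and S100a10 rose, and 5 genes between or beside them were at 0 in every library.

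S100a16 (ENSMUSG00000074457, chr3:90537254-90543151, plus strand), a widely expressed S100 protein studied in fat cells, was close to undetected in DMSO. It was at 0 in 4 DMSO libraries and at 0.0844 CPM in DMSO replicate 4, and measured 0.981, 0.619, 0.554 and 1.28 CPM in EPZ011989 replicates 1 to 4. All EPZ011989 libraries lay above all DMSO libraries, at a low level. The summed counts were 5 and 251, about 1 and 63 fragments, a depth-scaled ratio of 73.7 with a 95% counting interval of 12.7 to 2955. The adjusted p was 0.00129 by edgeR's quasi-likelihood test. The call held in the 19 alternative settings in which the gene was tested, but the gene met the filter through the EPZ011989 libraries alone.

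S100a4 (ENSMUSG00000001020, chr3:90603771-90606045, plus strand), also called fibroblast-specific protein, binds non-muscle myosin and is a marker of motile mesenchymal cells. It measured 0.541, 0.633, 0.720, 1.28 and 0.243 CPM in DMSO replicates 1 to 5 and 1.35, 1.69, 1.54 and 1.71 CPM in EPZ011989 replicates 1 to 4. DMSO replicate 4 reached nearly the lowest EPZ011989 library, and the groups did not overlap. The log2 fold change was 1.21 with an SE of 0.38 and an adjusted p of 0.0422 by edgeR. Leaving out any of DMSO replicates 1, 2 or 3 or any EPZ011989 library ended the call, at adjusted p from 0.0534 to 0.0926.

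S100a1 and S100a13 are transcribed away from each other, from starts with 42 bases between them in GENCODE and 104 in RefSeq. S100a1 (ENSMUSG00000044080, chr3:90511034-90514392, minus strand), which tunes the ryanodine receptor and the calcium pump of the sarcoplasmic reticulum in muscle, measured 39.4, 52.9, 41.4, 43.2 and 51.8 CPM in DMSO replicates 1 to 5. It measured 39.4, 37.1, 41.8 and 50.6 CPM in EPZ011989 replicates 1 to 4, within or below the DMSO range. Its log2 fold change of -0.12 with an SE of 0.12 did not pass (adjusted p = 0.553, edgeR).

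S100a13 (ENSMUSG00000042312, chr3:90514435-90524581, plus strand), which takes part in the unconventional export of fibroblast growth factor and interleukin, measured 17.0, 23.5, 17.2, 18.3 and 21.1 CPM in DMSO replicates 1 to 5. It measured 22.7, 18.9, 26.6 and 37.0 CPM in EPZ011989 replicates 1 to 4, with replicates 3 and 4 above all DMSO libraries and the other 2 among them. Its log2 fold change of 0.44 with an SE of 0.18 did not pass (adjusted p = 0.106, edgeR), but passed without EPZ011989 replicate 2 at 0.56 (adjusted p = 0.0159, edgeR). The ratio of S100a13 to S100a1 per kilobase was 0.386 to 0.421 over the DMSO libraries and 0.482 to 0.692 over the EPZ011989 libraries. These ratios did not overlap, were chosen with the values known and were not tested. The stretch between the GENCODE starts (RefSeq, GRCm38.p6, chr3:90514393-90514434, plus strand), shown because it lies between the starts of both genes, holds 1 CpG, in capitals.
S100a1-S100a13: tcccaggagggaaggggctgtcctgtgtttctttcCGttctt

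**Figure D4:**
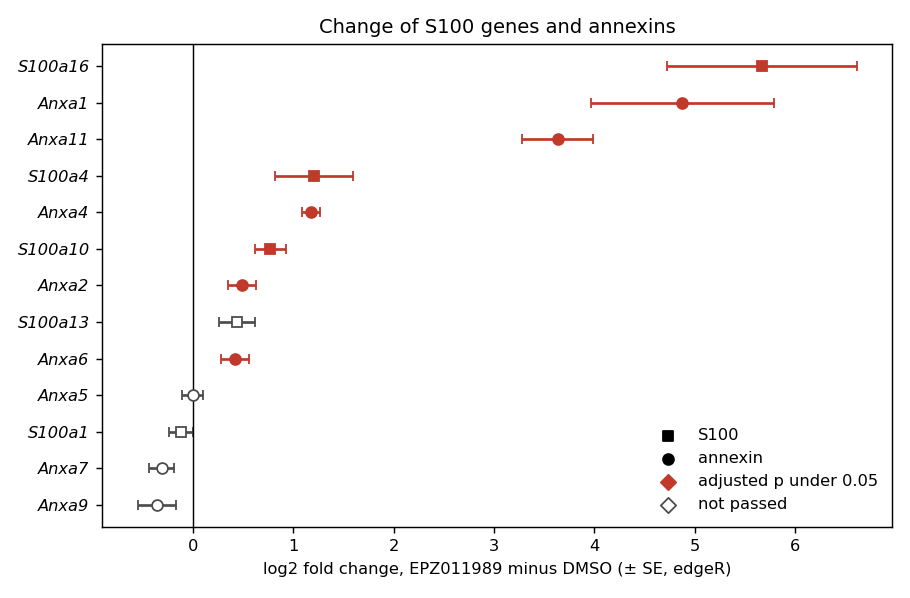
Log2 fold change of EPZ011989 over DMSO with its SE from edgeR for the 13 tested genes, S100 genes as squares and annexin genes as circles, filled at an adjusted p under 0.05. The 8 genes that passed lie above 0, from Anxa6 at 0.42 upward, and the values of S100a16 and Anxa1 depend on the fit's handling of DMSO libraries at 0.

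The remaining genes were near or below detection. S100a14 had counts only in EPZ011989 replicates 1, 3 and 4, at 0.0663, 0.0659 and 0.196 CPM, and Anxa3 only in replicates 1, 3 and 4, at 0.106, 0.251 and 0.126 CPM. Anxa8 measured at most 0.0844 CPM in DMSO and at most 0.211 CPM in EPZ011989, from summed counts of 9 and 41, a ratio of 5.85 with a 95% counting interval of 1.25 to 54.9. S100b, a glial S100 protein, measured 0.189, 0.118, 0.125, 0.0506 and 0 CPM in DMSO replicates 1 to 5 and was seen only in replicate 1 of EPZ011989. S100a6, also known as calcyclin, had counts in 1 library of each group. In the fit with no filter none of S100a11, S100a14, S100a6, S100b, Anxa3 and Anxa8 passed, with adjusted p from 0.057 to 0.988 by edgeR. The 9 genes at 0 in all libraries were S100a2, S100a3, S100a5, S100a8, S100a9, S100g, S100z, Anxa10 and Anxa13, and 12 counts, the limit that 0 allows, would be 0.158 to 0.203 CPM per library. S100a8 and S100a9, the calprotectin subunits of neutrophils, and S100g, the intestinal calcium carrier, are in this group.

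Promoter sequence was compared because these genes differed widely in level and response. RefSeq windows of 300 bases on GRCm38.p6 (250 before and 50 after the start) were found for 22 of the 28 genes, and where a gene had several starts the one farthest upstream was taken. CpG counts of the 6 windows of genes that rose ran from 2 to 25, with Anxa11 at 25, Anxa4 at 20, Anxa2 at 13, Anxa1 at 3 and S100a16 and S100a4 at 2. S100a10 and Anxa6, which also rose, had no window. The 5 tested genes that did not pass ran from 4 in Anxa7 to 36 in Anxa9, and the 7 at 0 in all libraries ran from 1 to 16 with a median of 3. For genes with another start the count there differed, at 3 for Anxa9, whose window above lies outside the printed gene span, 19 for Anxa7, 3 for Anxa4 and 4 for S100a16. S100a3, at 0 in all libraries, had 2 CpG in the window used and 3, 0 and 5 at its other starts. The median over all 27025 genes with a window was 7. At the upstream starts, the genes that rose thus included CpG-rich and CpG-poor windows. The bases before the start are printed for both kinds, with CpG in capitals, for Anxa4 (chr6:86793585-86793704, minus strand), Anxa11 (chr14:25842035-25842154, plus strand), S100a16 (chr3:90537134-90537253, plus strand) and S100a4 (chr3:90603650-90603769, plus strand).
Anxa4: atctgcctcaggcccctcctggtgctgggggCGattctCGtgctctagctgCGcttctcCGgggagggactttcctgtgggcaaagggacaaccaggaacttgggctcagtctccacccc
Anxa11: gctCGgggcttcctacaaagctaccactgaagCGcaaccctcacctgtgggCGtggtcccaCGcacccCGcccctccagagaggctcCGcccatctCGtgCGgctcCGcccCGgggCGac
S100a16: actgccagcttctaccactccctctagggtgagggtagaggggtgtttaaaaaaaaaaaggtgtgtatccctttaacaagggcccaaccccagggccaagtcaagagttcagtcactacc
S100a4: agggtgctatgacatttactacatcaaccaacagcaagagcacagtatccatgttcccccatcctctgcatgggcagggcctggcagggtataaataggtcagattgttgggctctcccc

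Anxa4 has 4 CpG and Anxa11 has 11 in these 120 bases, and S100a16 and S100a4 have 0. A set of 3 motifs was searched on both strands of the windows as letters only. The AP-1 motif TGANTCA was in 3 of the 22 windows (13.6%) against 7.92% of all windows, and the GC box GGGCGG in 6 (27.3%) against 35.9%. The TATA box TATAAA was in 7 (31.8%) against 14.2%. A match is a description of the letters and not a bound site.

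Genes that encode binding partners, targets and receptors of S100 proteins and annexins were taken as a list of 59. Of these, 47 passed the filter, 13 were higher (27.7%, against 16.2% of all genes tested), 4 lower (8.51%, near the 7.96% of all genes tested) and 30 did not pass, with a median log2 fold change of 0.06. Dysf, Ryr1, Mcam and Plau, all among the higher genes, met the filter through the EPZ011989 libraries alone. Their calls, and so the share higher, were partly set by the filter. Among cytoskeletal and membrane partners, Ezr, the membrane-actin linker ezrin, rose from 14.2 ± 0.985 CPM (SD, n = 5) to 55.0 ± 5.94 CPM (SD, n = 4), with an adjusted p of 4.21e-07 by edgeR. Dlc1, a tumour suppressor protein bound by S100a10, rose from 12.7 ± 1.29 to 34.9 ± 4.90 CPM (SD, n = 5 and 4; adjusted p = 6.35e-06, edgeR). Ppfibp1, the liprin bound by S100a4, rose from 25.3 ± 2.05 to 42.6 ± 7.60 CPM (SD, n = 5 and 4). Dysf, the membrane-repair protein dysferlin that works with annexins, rose from 0.129 ± 0.136 to 1.91 ± 0.244 CPM (SD, n = 5 and 4; adjusted p = 0.00395, edgeR). The ion channel genes Asic1 and Ryr1, the skeletal ryanodine receptor, rose with log2 fold changes of 0.47 and 3.38. Asic1 measured 11.3 ± 0.692 and 15.5 ± 1.53 CPM (SD, n = 5 and 4). Ryr1 was at a low level in both groups, at 0.136 ± 0.129 and 1.445 ± 0.316 CPM (SD, n = 5 and 4).

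The 4 genes of the list that fell were Atp2a2, Cacybp, Pgm1 and Pdcd6. Atp2a2, the reticulum calcium pump that S100a1 binds in heart, fell from 599 ± 43.4 to 445 ± 36.2 CPM (SD, n = 5 and 4; adjusted p = 0.00258, edgeR). Cacybp, the calcyclin-binding protein, fell from 238 ± 13.95 to 179 ± 10.2 CPM (SD, n = 5 and 4). Pgm1, a phosphoglucomutase, fell from 53.4 ± 3.26 to 40.1 ± 1.09 CPM and Pdcd6, the calcium sensor ALG-2 that binds Anxa7 and Anxa11, from 86.5 ± 4.43 to 66.9 ± 7.94 CPM (SD, n = 5 and 4). The list was matched by symbol. Whether the gene named Pgm1 here (ENSMUSG00000029171) is the phosphoglucomutase that S100 proteins bind was not checked. Of the receptor genes on the list, Ager and Tlr4 did not pass and Mcam was higher. Ager, which encodes RAGE, measured 1.02 ± 0.226 and 1.55 ± 0.524 CPM (SD, n = 5 and 4; adjusted p = 0.173, edgeR), and Tlr4 measured 0.179 ± 0.0488 and 0.126 ± 0.0947 CPM (adjusted p = 0.626, edgeR). Mcam rose from 0.187 ± 0.144 to 1.43 ± 0.387 CPM (SD, n = 5 and 4; adjusted p = 0.00667, edgeR), a low level in both groups. Cd36, Bsg and Alcam of the same list did not pass. The receptor genes Fpr1, Fpr2 and Fpr3 were below the filter. Fpr1 had 8 counts in EPZ011989 and 0 in DMSO, Fpr2 had 5 in DMSO and 0 in EPZ011989, and Fpr3 had 0 in both.

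Some markers of other cell types passed the test in the same libraries, where 16.2% of all genes tested were higher and 7.96% lower. Only part of each list was tested. This was 6 of the fibroblast and stellate markers, 4 myeloid, 3 Schwann and glial, 4 ductal, 2 endothelial and 1 keratinocyte marker. Of 9 fibroblast and stellate markers, 4 were higher, and their summed level was 7.31 to 10.01 CPM in DMSO and 31.0 to 42.3 CPM in EPZ011989, mostly from Pdgfra. The 4 were Pdgfra (7.29 ± 0.964 to 27.6 ± 5.88 CPM), Thy1 (0 in every DMSO library to 3.28 ± 0.741 CPM), Col1a1 (0.128 ± 0.109 to 1.15 ± 0.335 CPM) and Pdgfrb (0.0470 ± 0.0765 to 0.777 ± 0.326 CPM; SD, n = 5 and 4). Thy1, Col1a1 and Pdgfrb met the filter through the EPZ011989 libraries alone, so their calls were partly set by the filter. Col1a2 and Fn1 did not pass, with every EPZ011989 library above the DMSO libraries, and Col3a1, Dcn and Lum were at 0 in every DMSO library and at means of 0.162, 0.0265 and 0.0165 CPM in EPZ011989. Myeloid markers, of which Lyz2 was the only one of 7 to pass, summed to 5.12 to 7.51 CPM in DMSO and 8.12 to 10.8 CPM in EPZ011989, with Ly6g at 0. Of 6 Schwann and glial markers 1 was higher, with sums of 20.1 to 23.8 and 28.5 to 31.5 CPM and Foxd3 at 0, and of 6 ductal markers 1 was higher and 1 lower, with sums of 19.4 to 25.2 and 32.4 to 36.7 CPM and Cftr at 0. Of 5 endothelial markers 1 was higher, Kdr, with sums of 0.118 to 0.311 and 0.519 to 1.35 CPM. Lyz2 and Kdr also met the filter through the EPZ011989 libraries alone, so their calls were partly set by the filter. Among 7 keratinocyte markers none passed, and Ivl, Krt1, Krt14, Krt5 and Lor were at 0. The part of these markers in the S100 and annexin results was not tested.

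Libraries differed in a way related to transcript length, and several genes of both families deviated in the direction of short genes. Over 355 genes with transcripts under 1 kb and a mean of 10 CPM or more, the median log2 deviation from the group mean was -0.34 in EPZ011989 replicate 2 and 0.33 in replicate 4. Over 3849 genes of 4 kb or longer it was 0.20 and -0.17. In the same libraries the deviations were -0.43 and 0.42 for S100a10, -0.43 and 0.54 for S100a13, -0.41 and 0.42 for Anxa2, -0.52 and 0.29 for Anxa6, and -0.15 and 0.19 for Anxa4. These genes did not follow their own length. Anxa6, with the lowest of these values in replicate 2, has a transcript of 2489 bases. S100a4, at 498 bases and a low level, deviated by 0.11 and 0.13. Without these 2 libraries, 7 genes were higher, with S100a4 no longer passing (adjusted p = 0.133, edgeR), and Anxa7 was lower (adjusted p = 0.0485, edgeR). With the length trend removed as fitted on genes at 10 CPM or more, 9 were higher, S100a13 being the addition. With the trend fitted on all tested genes, which moved the median of all genes to -0.26, 6 were higher, without Anxa2 and Anxa6, and 4 were lower (Anxa5, Anxa7, Anxa9 and S100a1).

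**Figure D5:**
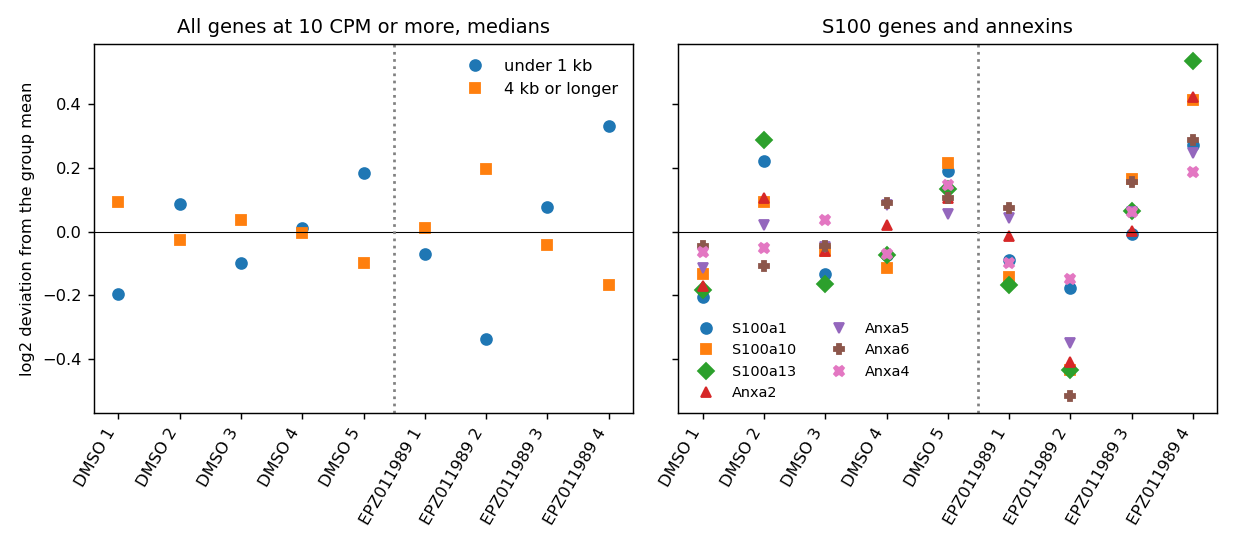
Log2 deviation of each library from its group mean, as medians over short and long genes (left) and for 7 S100 and annexin genes (right). EPZ011989 replicate 2 is low and replicate 4 high for short genes and for all 7 genes shown.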

How the data were processed

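The authors deposited whole-number gene counts for 9 libraries, grouped here by the treatment in the labels. HISAT2, StringTie, DESeq2 and the build mm10 appear, with no role or version, in the submitters' processing notes. Strand use in counting is not given in the sources used here. Among low values, a count of 1 was the commonest (3970 values), while 4 (3046) and 5 (2732) were more frequent than 2 (2108) or 3 (2160). How many counts a fragment adds is thus not settled. It was assumed to be 4, which sets the detection limit of 12 counts per library (3 fragments) and all counting intervals. Counting intervals cover counting error only and use the exact binomial method at 95%. Genes were kept by filterByExpr, scaled with TMM and tested with edgeR 4.0.16 (R 4.3.3), using the robust quasi-likelihood test on all 9 libraries with treatment as the only term and Benjamini-Hochberg adjustment over 14754 genes (two-sided). Each SE equals the absolute log2 fold change divided by the root of F. The family genes, partner lists and marker lists were chosen with earlier results of these data known. All family genes are accounted for. Those called or at 10 CPM or more have each library's value. Of the partner genes, up to 6 called per direction are named by smallest p, plus Ahnak, Ager and Tlr4. Mcam, Cd36, Bsg, Alcam, Fpr1, Fpr2 and Fpr3 are named beside Ager and Tlr4, and Plau for how it met the filter. Gene positions and lengths (longest basic protein-coding transcript) come from GENCODE M21 on GRCm38. Promoter windows come from RefSeq. The fit, tested on counts simulated for 13920 genes, called 83% of the 100 genes set to a 2-fold change, 99% of the 100 set to a 4-fold change, and 9 genes left as they were. The changed genes were drawn from those with a DMSO mean of at least 1 CPM. S100a16, Anxa1, Anxa11 and S100a4 lay below that level in DMSO, so these percentages do not describe them. Alternatives were other scalings and filters, DESeq2 1.42.0, limma-voom 3.58.1, counts divided by 4, a replicate block and leaving out each library. Leaving out EPZ011989 replicates 2 and 4 and both length corrections were chosen after seeing the data.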

Additional observations from a re-analysis of the deposited data

Results flagged for a closer look

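A few single libraries stood apart from an otherwise empty group, all at very low level. Of the 61 sets of libraries checked, 5 stood apart in this way. All other libraries of these sets were at 0, so any count stands apart there, and the rate of about 1 in 20 sets that chance gives does not apply. S100b was at 0.0530 CPM (4 counts) in EPZ011989 replicate 1 and at 0 in the other EPZ011989 libraries. S100a6 was at 0.243 CPM (17 counts) in DMSO replicate 5 and at 0.186 CPM (14 counts) in EPZ011989 replicate 1, with 0 in all others. S100a16 was at 0.0844 CPM (5 counts) in DMSO replicate 4 and Anxa1 at 0.0572 CPM (4 counts) in DMSO replicate 5, each with 0 in the other DMSO libraries. A value of 4 or 5 counts is about 1 fragment.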

How the results depend on the processing

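Of the 8 S100 and annexin genes that rose, Anxa4, Anxa11 and S100a10 passed in all 21 alternatives and S100a16 in the 19 that tested it. Anxa11 and S100a16 met the filter through the EPZ011989 libraries alone, so their calls were partly set by it. With counts divided by 4, 5 genes were higher, and S100a16 and Anxa1 were not tested. With the replicate number as a block 4 were higher, Anxa1, Anxa2, Anxa6 and S100a4 being lost. The numbers share no origin in the labels, same-numbered libraries correlated at -0.099 to 0.03, and 2 of 8 libraries correlated best with their own number. Leaving out each library gave 5 to 8 higher and 0 to 1 lower. DESeq2 called 1 lower, as did leaving out EPZ011989 replicates 2 and 4 (Anxa7 in both). Removing a length trend fitted on all genes moved the median of all genes from 0.03 to -0.26, and 6 were then higher and 4 lower (Anxa5, Anxa7, Anxa9 and S100a1); over all genes it called 8378, 1734 of them higher, against 3562 with 2388 higher as reported and 3511 with 2735 higher under upper-quartile factors. Partner genes called lower were 4 as reported, 7 with DESeq2, 21 under that length correction and 4 to 8 on leaving out each library. The log2 fold change of Anxa5 (-0.002) was 0.053 with upper-quartile factors, 0.041 with library size alone, 0.033 without EPZ011989 replicates 2 and 4, 0.024 with the length trend of genes at 10 CPM or more removed, and -0.103 to 0.095 on leaving out each library (above 0 without DMSO replicate 2, 0.003, DMSO replicate 4, 0.004, or EPZ011989 replicate 2, 0.095). Where no cause is named, the cause was not tested. Depth limits genes under about 0.2 CPM.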
